A study of Homo sapiens with 6 samples.

Results

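Interferon-stimulated genes are the genes that type I interferons switch on in almost every nucleated cell. The set described here holds 35 of them outside the OAS family, taken from a list of symbols drawn up with earlier results of these data known, and sorted by role into 3 RNA sensors, 4 STAT and IRF factors and 28 effectors. Of the 35 genes 33 had a row among the 25969 genes of the files, and the expression of CMPK2 and XAF1 was not analysed here. The study measured gene expression by RNA sequencing in cells labelled LNCaP, an androgen-sensitive human prostate cancer line. It compared 3 libraries of cells that received a VIM-AS1 overexpression vector, VIM-AS1 being a noncoding RNA encoded opposite to the vimentin gene VIM, with 3 control libraries of the same line carrying the vector pcDNA3.1. The question asked of these genes was whether a general interferon response accompanied VIM-AS1 overexpression.

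Type I interferons bind the receptor pair IFNAR1 and IFNAR2, whose kinases TYK2 and JAK1 phosphorylate STAT proteins, STAT2 among them. With IRF9 these form the factor ISGF3, which binds the interferon-stimulated response element, or ISRE, in the promoters of its target genes. The sensors DDX58 (RIG-I) and IFIH1 (MDA5) detect viral double-stranded RNA in the cytosol and, through IRF3 and IRF7, start the production of interferon. The effectors hinder viral entry, translation and replication, and several of the sensors and factors are themselves interferon-stimulated. LNCaP is known from earlier work as a line with little JAK1 and a weak response to interferon. In the libraries studied here JAK1 was expressed, at values given below, and the response of these cells to interferon was not tested.

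Values are normalized reads as the authors deposited them, that is, gene counts divided by a factor for each library, and libraries held 14762893 to 19889745 recovered reads. VIM-AS1 stood at 2197, 2019 and 2763 normalized reads in the overexpression libraries and at 8.63, 1.22 and 5.53 in the controls. The label LNCaP was checked against 10 markers, 8 of which had a row. HOXB13 (401 to 807), KRT8 and KRT18 were expressed, but KLK3, which encodes PSA, was at 0 in 5 of 6 libraries and at 1.92 in control replicate 1. FOLH1, which encodes PSMA, was at 0 in 4 libraries and at most at 3.84, so these defining markers of the line were at or near 0. The labels do not state that libraries within a group stem from separate cultures, so every p-value reflects a spread between libraries that may be technical. The third library of each group shared a large deviation from the other libraries of its group. Results are therefore given from limma without a library term and with a term for the third libraries. That term was picked from the data, so its SE and p values may be too small. It treats the first and second libraries of a group as alike, yet control replicates 1 and 2 also differed. Their chi-square per degree of freedom, which grows with the difference between libraries, was 41.4. For the pairs of control replicates 1 and 2 with replicate 3 it was 65.4 and 62.2. In the VIM-AS1 group the same values were 7.14, 45.5 and 69.2.

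Without the term none of the 30 tested members passed an adjusted p of 0.05 (limma, Benjamini-Hochberg), against 0.0239% of all tested genes. The smallest adjusted p among them was 0.142, for IFI44. Members at an unadjusted p under 0.05 numbered 9 of 30, against 13.6% of all genes, and edgeR and DESeq2 on the recovered reads called 0 members. With the third-library term, limma called 4 members higher and 5 lower of 30. In that fit 11.5% of all 20927 tested genes were called higher and 7.94% lower, or 19.4% in either direction. In what follows, "rose" and "fell" mean an adjusted p under 0.05 in that fit, and fold changes are log2 values on the log2(value + 1) scale with their SE. The members that rose were the sensor DDX60 and the effectors ISG15, IFIT2 and IFI44. Those that fell were the factors STAT2 and IRF7 and the effectors IFI35, IFITM1 and IFI27. With the replicate number as a block in place of the term, 6 members were called higher and 7 lower, against 15.8% and 10.8% of all genes (26.6% in either direction). The block added HERC6 and IRF1 to the higher members, and IFI6 and IFITM2 to the lower. No label says that equal numbers pair libraries, and that block also rests on the data. Its SE and p values may therefore be too small as well. In 9 of the 30 members every VIM-AS1 library was above every control and in 2 every one was below. Over all tested genes these shares were 9.5% and 10.3%, or 19.8% in either direction.

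The promoters are shown because a shared response to ISGF3 would act through the ISRE, and because members with an ISRE core went both ways. The sequences cover the 130 bases before the start site, from RefSeq on GRCh38.p14, 5′ to 3′ on the strand of the gene. Capitals mark ISRE cores, searched on both strands as GAAA, any 2 bases and GAAA again (on the other strand TTTC, any 2 bases and TTTC), and cores that overlap are run together. The stretches lie at chr4:168318753-168318882 (minus strand) for DDX60, chr1:1013367-1013496 (plus) for ISG15, chr1:78649659-78649788 (plus) for IFI44, chr11:313910-314039 (plus) for IFITM1 and chr14:94110606-94110735 (plus) for IFI27.
DDX60: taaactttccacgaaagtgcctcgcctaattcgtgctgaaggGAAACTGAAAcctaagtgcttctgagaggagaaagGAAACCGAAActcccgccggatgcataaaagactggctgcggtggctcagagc
ISG15: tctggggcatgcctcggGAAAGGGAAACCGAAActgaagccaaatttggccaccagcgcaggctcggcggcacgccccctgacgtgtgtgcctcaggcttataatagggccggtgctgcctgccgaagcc
IFI44: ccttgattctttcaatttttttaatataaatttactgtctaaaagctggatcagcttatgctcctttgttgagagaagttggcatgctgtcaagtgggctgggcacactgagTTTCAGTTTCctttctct
IFITM1: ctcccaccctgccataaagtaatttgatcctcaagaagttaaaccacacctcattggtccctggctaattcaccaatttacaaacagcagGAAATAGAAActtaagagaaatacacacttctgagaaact
IFI27: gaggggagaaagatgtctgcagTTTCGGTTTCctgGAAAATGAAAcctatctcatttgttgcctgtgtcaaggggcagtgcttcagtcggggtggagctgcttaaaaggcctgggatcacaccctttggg

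DDX60, ISG15 and IFI44 rose, and IFITM1 and IFI27 fell. DDX60 shows 2 separate cores, in ISG15 both cores share 4 bases, and a further IFITM1 core crosses the start site and is not shown. In the window from 250 bases before to 50 after the start, an ISRE core on either strand was present in 3.57% of all 35116 RefSeq promoters. It was present in 19 of the 29 members with a promoter entry (65.5%), a member being counted if any of its entries held a core. The share of all promoters counts entries, and by entry 23 of 40 of the members held one. CMPK2 and XAF1 are counted among the 29 and held no core. By direction, 3 of 3 members that rose and 2 of 4 that fell held a core, and so did 12 of 17 tested members that did not pass. STAT2 and IFI35 held no core in this window, and IFIT2 and IRF7 had no entry. The GAS element TTCNNNGAA, which STAT dimers bind, was in 8 of 29 members, or 9 of their 40 entries, against 7.66% of all promoters. A match is a description of letters and not of a bound site. The members were listed as interferon-stimulated genes, so a share of ISRE cores above that of all promoters describes the list and is not a result of these libraries.

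The 3 sensors had higher means in the VIM-AS1 libraries, all at fewer than 30 normalized reads per library, and DDX60 alone rose. DDX60 is a helicase-family protein linked to RIG-I signalling (chromosome 4, 168216293 to 168318807, minus strand). It stood at 9.48, 11.8 and 29.7 normalized reads in VIM-AS1 replicates 1 to 3 and at 1.92, 2.44 and 7.11 in the controls. The groups did not overlap, and the third library was the highest in each. The log2 fold change was 1.88 ± 0.50 (SE, limma with the term, adjusted p = 0.0116), with 1.87 in the first and second libraries against 1.92 in the third. These values rest on 50 against 13 reads, a ratio of 4.08 with a 95% interval of 2.18 to 8.19 that covers counting error only. IFIH1 stood at 6.32, 3.92 and 5.12 against 2.88, 0 and 2.37. Its groups also did not overlap, but with 15 against 6 reads its log2 fold change of 1.36 ± 0.70 did not pass (limma, adjusted p = 0.195). DDX58 stood at 12.6, 5.88 and 17.4 against 4.80, 3.67 and 11.1, with overlapping groups and a log2 fold change of 0.80 ± 0.51 (limma, adjusted p = 0.304). All 3 sensors were scarce, with mean levels of at most 0.164 RPKM, that is, reads scaled to exon length and library size, in either group.

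**Figure D1:**
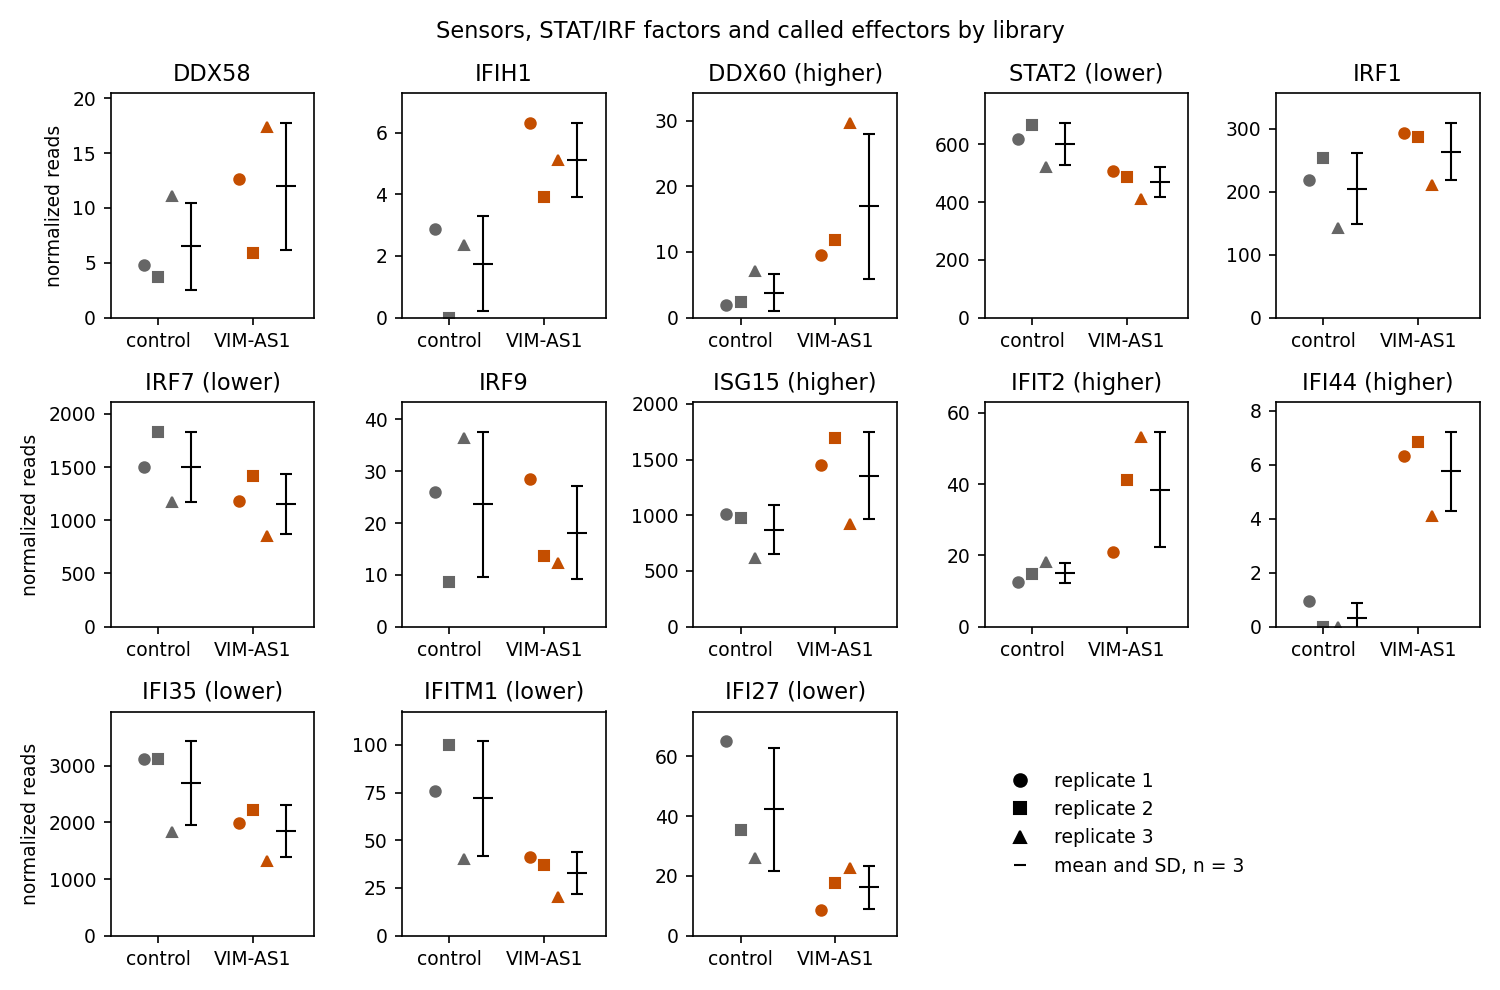
Normalized reads (linear axis from 0) of the 3 sensors, the 4 STAT and IRF factors and the 6 effectors that rose or fell, by group; each marker is a library, its shape the replicate number, and the bar is the mean with SD over 3 libraries. DDX60, IFIT2 and IFI44 lie wholly above the controls, while ISG15, IRF7, IFI35 and IFITM1 overlap between groups and are ordered in the same way within each replicate number.

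The 4 STAT and IRF factors did not move together. STAT2, a subunit of ISGF3 (chromosome 12, 56341597 to 56360155, minus strand), fell. It stood at 509, 487 and 412 normalized reads in the VIM-AS1 libraries and at 618, 666 and 523 in the controls, with no overlap. The log2 fold change was -0.36 ± 0.11 (limma with the term, adjusted p = 0.0278). IRF7, which amplifies interferon production (chromosome 11, 612553 to 615999, minus strand), also fell, with 1181, 1421 and 856.5 against 1499, 1833 and 1172. Its groups overlapped, but each VIM-AS1 library was below the control of the same number, and the log2 fold change was -0.39 ± 0.11 (limma with the term, adjusted p = 0.0185). IRF1, a factor induced by interferon gamma, stood at 293, 287 and 211 against 219, 253 and 142. Its log2 fold change of 0.39 ± 0.14 did not pass with the term (limma, adjusted p = 0.0585), and it passed with the replicate block (limma, adjusted p = 0.0191). Of the IRF1 exon length 22.0% overlaps C5orf56 on the opposite strand, and no label says that the library preparation kept strand information, so reads there cannot be assigned with certainty.

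IRF9, the DNA-binding subunit of ISGF3, had no steady direction. It stood at 28.4, 13.7 and 12.3 against 25.9, 8.55 and 36.3, and its log2 fold change was -0.25 ± 0.48 (limma with the term, adjusted p = 0.778). The fold change was 0.38 in the first and second libraries against -1.49 in the third, and 48.4% of its exon length is also exon of AL136295.5 on the same strand.

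Among the 3 IFIT genes, whose proteins bind foreign RNA and hold back its translation, IFIT2 rose. IFIT2 (chromosome 10, 89283694 to 89309276, plus strand) stood at 21.1, 41.1 and 53.2 against 12.5, 14.7 and 18.2. Every VIM-AS1 library was above every control, and the log2 fold change was 1.21 ± 0.36 (limma with the term, adjusted p = 0.0214). Its neighbour IFIT3 stood at 15.8, 22.5 and 39.9 against 13.4, 14.7 and 15.8. Its change was 0.70 ± 0.38 and did not pass (limma, adjusted p = 0.225), with 0.40 in the first and second libraries against 1.28 in the third. IFIT1, often used as a readout of interferon signalling, stood at 53.7, 63.7 and 83.9 against 65.2, 70.9 and 95.6, with a change of -0.20 ± 0.21 and a 95% interval of -0.65 to 0.24. The log2 ratio of IFIT2 to IFIT1 was -0.86 ± 0.39 (SD, n = 3) with VIM-AS1 and -2.28 ± 0.07 in the controls. That difference of 1.42 gave p = 0.1 in a two-sided exact permutation test, and 0.1 after adjustment over the 2 ratios tested. Since 0.1 is the smallest p that 3 against 3 can give, this test could not pass the threshold used for calls. No conclusion is drawn from it, and the ratio is a description. Both ratios set a called member against a paralogue that was not called, and the adjustment does not cover that choice.

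ISG15, a ubiquitin-like protein that is attached to other proteins after interferon, rose. The gene (chromosome 1, 1001138 to 1014540, plus strand) stood at 1451, 1694 and 925 normalized reads against 1011, 979.8 and 617. The groups overlapped, because the third library was the lowest in each, and every VIM-AS1 library exceeded the control of the same number. The log2 fold change was 0.63 ± 0.10 (limma with the term, adjusted p = 0.000299), with 0.65 in the first and second libraries against 0.58 in the third. Other genes of ISG15 conjugation had higher means but did not pass. USP18, the protease that removes ISG15, stood at 135, 135 and 118 against 82.5, 115 and 99.5 (log2 fold change 0.39 ± 0.19, limma adjusted p = 0.156). HERC5, the main ISG15 ligase, stood at 17.9, 17.6 and 24.6 against 5.76, 15.9 and 7.90 (1.05 ± 0.45, limma adjusted p = 0.117). HERC6 stood at 8.43, 5.88 and 7.16 against 3.84, 0 and 1.58, from 21 against 6 reads. Its change of 1.80 ± 0.69 did not pass with the term (limma, adjusted p = 0.0735) and passed with the block (limma, adjusted p = 0.0446). In all 3 of these genes every VIM-AS1 library was above every control. UBE2L6, the conjugating enzyme of the same pathway, had 1 against 4 reads in all and was not tested.

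Of the effectors named for interferon induction alone, IFI44 rose, and IFI35 and IFI27 fell. IFI44 (chromosome 1, 78649796 to 78664078, plus strand) stood at 6.32, 6.86 and 4.09 against 0.959, 0 and 0. In reads this was 17 against 1, a ratio of 18.0 with a 95% counting interval of 2.83 to 754, so the size of the rise is poorly set. Its log2 fold change of 2.41 ± 0.70 (limma with the term, adjusted p = 0.0193) depends on the pseudocount. IFI44L, its neighbour and paralogue, had 0 against 4 reads, all 4 in control replicate 1, and was not tested.

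IFI35 (chromosome 17, 43006725 to 43014456, plus strand), which encodes a leucine zipper protein, was among the abundant members. It stood at 1995, 2225 and 1326 against 3127, 3130.0 and 1836. Each VIM-AS1 library was below the control of the same number although the groups overlapped, and the log2 fold change was -0.54 ± 0.10 (limma with the term, adjusted p = 0.000804). IFI27 (chromosome 14, 94104836 to 94116698, plus strand), which encodes a mitochondrial protein, stood at 8.43, 17.6 and 22.5 against 65.2, 35.4 and 26.1. The groups did not overlap. Its log2 fold change was -1.33 ± 0.41 (limma with the term, adjusted p = 0.0276), but it was -1.89 in the first and second libraries against -0.20 in the third. IFI6 stood at 250, 275 and 246 against 374, 395 and 233, a change of -0.34 ± 0.14 that did not pass with the term (limma, adjusted p = 0.109) and passed with the block (limma, adjusted p = 0.0444). The third libraries gave a change of 0.08 for IFI6, opposite to the others.

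Of the membrane proteins that block viral entry or release, IFITM1 fell. IFITM1 (chromosome 11, 313506 to 315272, plus strand) stood at 41.1, 37.2 and 20.5 against 75.8, 100.2 and 40.3. The third library was the lowest in each group, and the lowest control was just below the highest VIM-AS1 library. The log2 fold change was -1.07 ± 0.26 (limma with the term, adjusted p = 0.0056), with -1.14 in the first and second libraries against -0.94 in the third. Of its exon length 32.5% is also exon of IFITM2, which had far more reads, so IFITM1 reads in that stretch are uncertain. IFITM1, IFITM2 and IFITM3 are close paralogues, and the counting may also have split reads between them. IFITM2 stood at 4020.4, 4336 and 2762 against 4183, 5554 and 3408, a change of -0.24 ± 0.11 that did not pass with the term (limma, adjusted p = 0.161) and passed with the block (limma, adjusted p = 0.0258). IFITM3, which restricts influenza virus entry, stood at 8180, 9323 and 5400 against 8134, 12405 and 6359, a change of -0.21 ± 0.14 (limma, adjusted p = 0.308). The log2 ratio of IFITM1 to IFITM3 was -7.84 ± 0.20 (SD, n = 3) with VIM-AS1 and -6.98 ± 0.27 in the controls. The two-sided exact permutation test gave p = 0.1, the smallest possible, and 0.1 after adjustment over the 2 ratios. That test could not pass the threshold either, so this ratio is also only a description. BST2, or tetherin, which holds budding virus at the cell surface, stood at 5507, 5289 and 3656 against 5024, 4694 and 2989. Its change was 0.20 ± 0.10 (limma, adjusted p = 0.197).

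None of the 8 tested members with other roles passed. MX1 and MX2, dynamin-like GTPases and classical interferon targets, differed by 0.18 ± 0.48 and -0.92 ± 0.83, and MX1 stood at 7.84 to 13.7 against 7.33 to 11.5. The 95% interval for MX1 ran from -0.82 to 1.17, so it holds both rises and falls, and no difference was detectable at this depth. MX1 and ISG20 changed sign with the GC and length correction, to -0.01 and -0.16, and ISG20 also with library size scaling (-0.04). SAMD9L, a growth inhibitor, stood at 4.21, 3.92 and 7.16 against 0, 1.22 and 3.16, with groups that did not overlap and a change of 1.50 ± 0.67 (limma, adjusted p = 0.133). Its paralogue SAMD9 differed by 0.19 ± 0.54, and the exonuclease ISG20 by 0.02 ± 0.21. The partners PARP9 and DTX3L, a mono-ADP-ribosyltransferase and a ubiquitin ligase that share a promoter region, differed by -0.04 ± 0.18 and 0.27 ± 0.14. TRIM22, a restriction factor, differed by -0.87 ± 0.72. RSAD2, or viperin, had 2 reads in the VIM-AS1 libraries and 0 in the controls and was not tested.

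**Figure D2:**
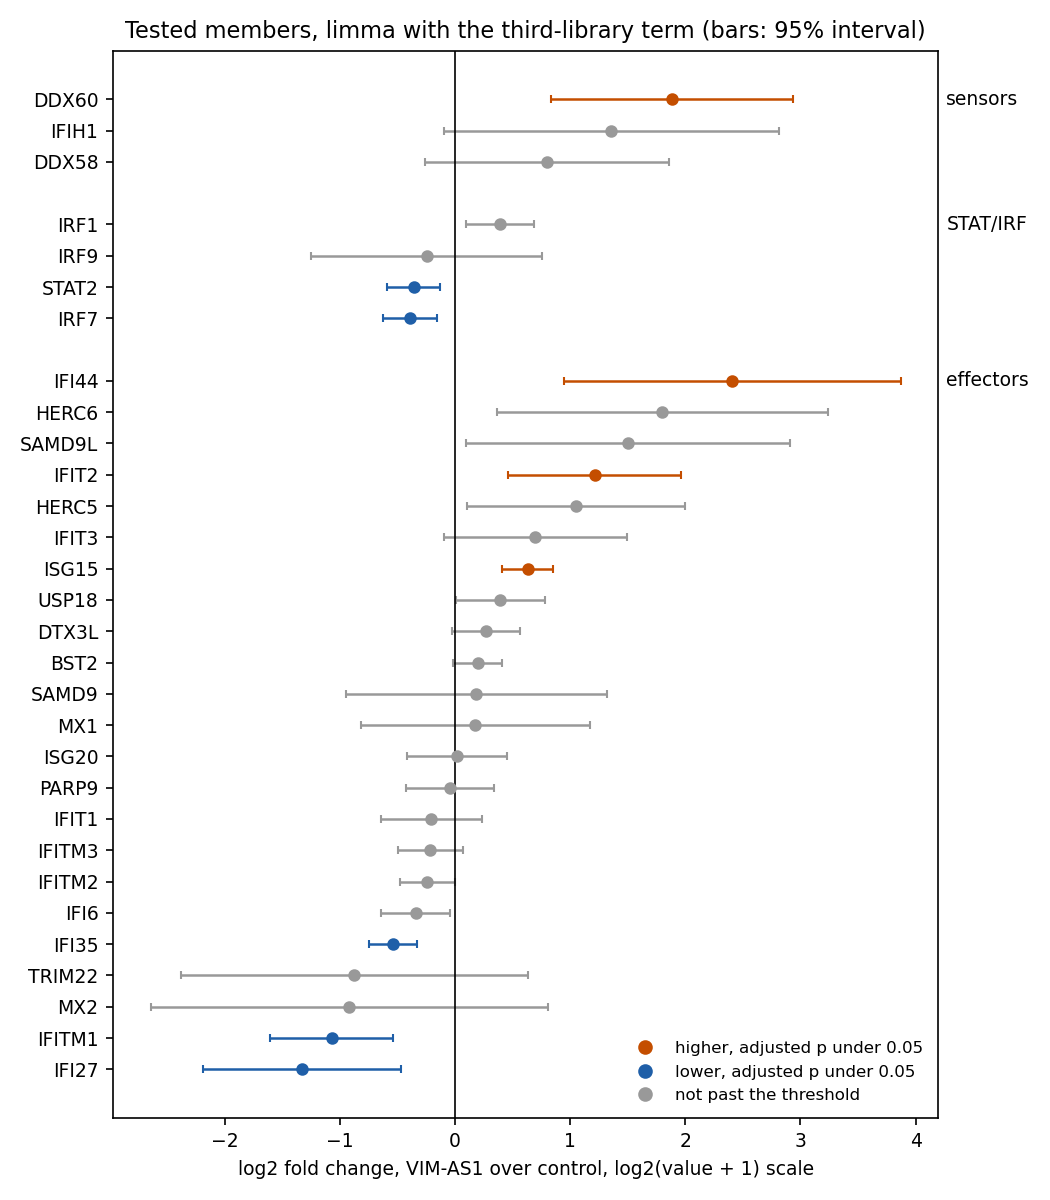
Log2 fold change (VIM-AS1 over control, log2(value + 1) scale) of the 30 tested members by role, from limma with the third-library term; points are estimates, bars the 95% interval, and colour the call. Intervals are widest for members with few reads, such as MX2 and IFI44, and the largest estimate is the 2.41 of IFI44.

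The members were also set beside all tested genes on the same side of a split at a mean of 100 normalized reads. This matches levels only roughly, because the genes under 100 reach down to a mean of 1. Genes detected per library numbered 20717 to 21484 with VIM-AS1 and 20479 to 22522 in the controls. How far genes near the floor set the shares of all genes was not tested. That split was chosen with the values known, and the difference between both levels was not tested. The 18 tested members with a mean under 100 had a median log2 fold change of 0.44, and 12 of them were above 0. Over all 11169 tested genes of that level the median was -0.26, and 35.24% were above 0. In 8 of these 18 members every VIM-AS1 library was above every control, against 4.58% of all genes of that level. Those 8 were IFIH1, DDX60, IFIT2, IFIT3, HERC5, HERC6, SAMD9L and IFI44. The reverse held for 1, IFI27, against 14.3% of such genes. Of the 8, IFI44 reached the mean of at least 1 needed for testing only through the VIM-AS1 libraries (5.76 against 0.32 in the controls). IFIH1, HERC6 and SAMD9L rest on 15 to 21 against 5 to 6 reads, with a control library at 0 for each. These counts are a description and not a test. With the term, 5 of the 18 were called, against 8.45% of genes of that level. The 12 members with a mean of at least 100 had a median of -0.13, with 5 above 0, against a median of 0.11 and 62.67% above 0 over all 9758 genes of that level. The groups did not overlap for USP18, which was higher (against 15.1% of such genes), and for STAT2, which was lower (5.81%). With the term, 4 of the 12 were called, against 32.0% of genes of that level. Over the whole set the median was 0.18 for 30 members and -0.02 for all tested genes.

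**Figure D3:**
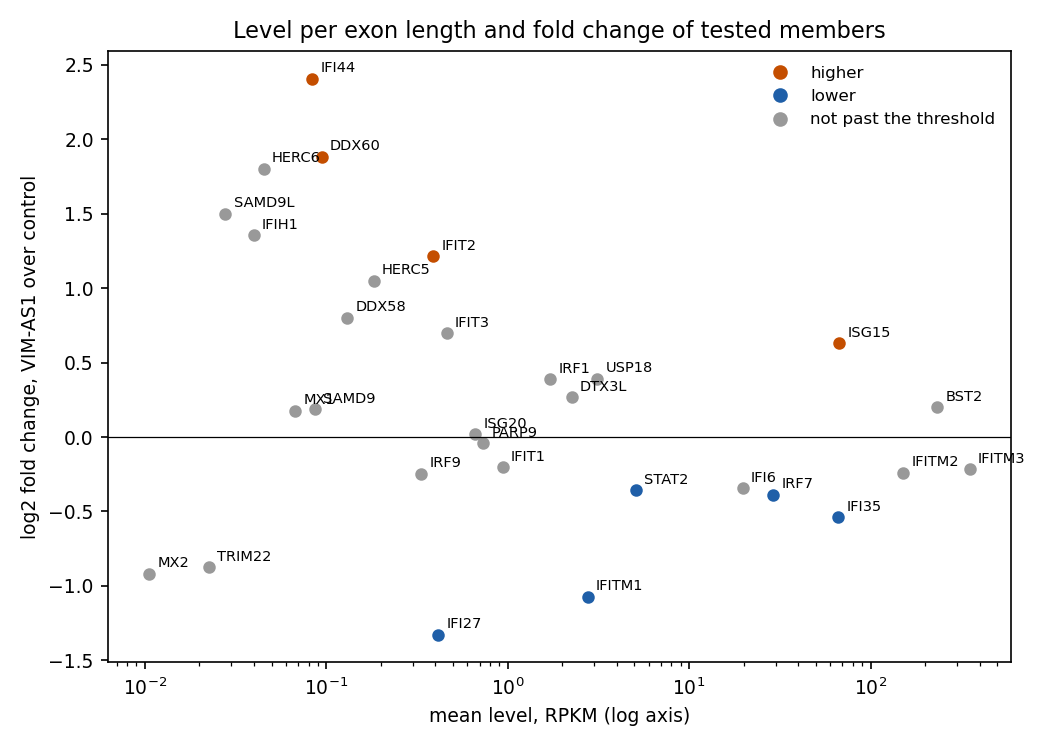
Log2 fold change (VIM-AS1 over control, from the fit with the third-library term) of the 30 tested members against their level, the mean of both groups in RPKM on a log axis; each point is a gene and its colour the call. The estimates above 1 belong to members with levels under 1, and ISG15 is the only abundant member called higher.

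Levels per exon length spanned a wide range. IFITM3 was the most abundant member, at 317 RPKM with VIM-AS1 and 386 in the controls, followed by BST2 (243 and 222), IFITM2 (135 and 166), ISG15 (80.6 and 54.1), IFI35 (52.6 and 79.8), IRF7 (24.6 and 33.5) and IFI6 (17.0 and 22.5). STAT2 stood at 4.37 and 5.84. MX1 (0.0708 and 0.0642), IFI44 (0.159 and 0.00917), RSAD2 and IFI44L lay at the low end. A count of 0 in a library allows up to 3 reads, or 2.37 to 3.67 normalized reads.

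The third libraries, taken alone, mostly gave the sign of the first and second. In 25 of 30 members both sets had the same sign. The exceptions were IRF9, SAMD9, IFI6, ISG20 and MX2. The last of these was at 0 in the third library of each group.

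**Figure D4:**
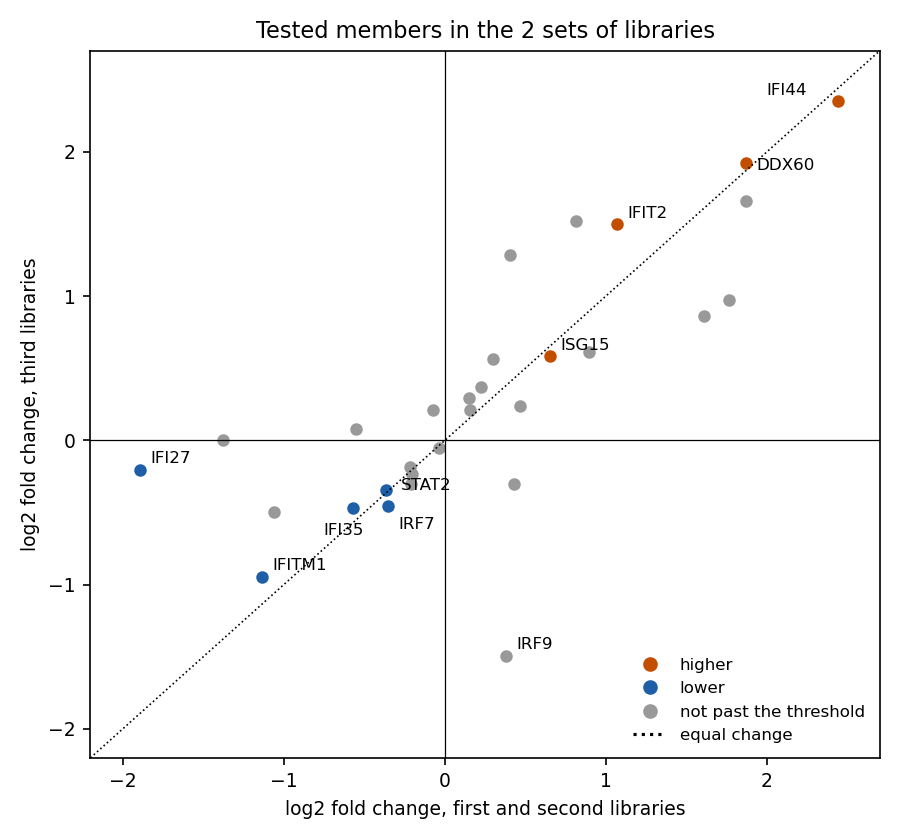
Log2 fold change (log2(value + 1) scale) of the 30 tested members in the third libraries (1 against 1, no test) against that in the first and second libraries (2 against 2); each point is a gene, colour is the call from the fit with the third-library term, and the dotted line marks equal change. IFI27 lies far from the line (-1.89 and -0.20), and IRF9 changes sign (0.38 and -1.49).

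The calls depended on which libraries were kept. Without VIM-AS1 replicate 3 none of the 9 called members passed, with adjusted p from 0.0601 (ISG15) to 0.252 (IFIT2). In that fit the term leaves control replicate 3 out of the comparison, so it compares the first and second libraries. The fit without control replicate 3 likewise leaves VIM-AS1 replicate 3 out and makes the same comparison. Losses in these fits are therefore not separate checks. Fold changes in the first and second libraries stayed close to those of all libraries for STAT2 (-0.36), IRF7 (-0.36), IFIT2 (1.07), IFI35 (-0.57) and IFI44 (2.44). The same held for DDX60, ISG15 and IFITM1 above. Without control replicate 3, ISG15 alone passed (limma, adjusted p = 0.0417), and the other members ranged from 0.0532 (IFI35) to 0.230 (IRF7). STAT2, IRF7, IFI27 and IFI44 lost the call without VIM-AS1 replicate 1 (limma, adjusted p = 0.0758, 0.123, 0.168 and 0.0743). STAT2, DDX60, IFIT2 and IFI44 lost it without VIM-AS1 replicate 2 (0.128, 0.062, 0.150 and 0.0932). STAT2, IRF7 and IFI27 lost it without control replicate 2 (0.0717, 0.0793 and 0.0547), and HERC5 and IRF1 gained it there (0.0307 and 0.0355). Without control replicate 1, IFI27 lost the call (adjusted p = 0.144), its fold change moved from -1.33 to -0.92, and HERC6, IFITM2 and IFITM3 gained it (0.016, 0.00477 and 0.00475). IFI27 moved to -0.89 without VIM-AS1 replicate 1. No called member changed sign in any of these fits.

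Lists of genes upstream of the members and of other interferon-linked genes were examined in the same fits. These pathway lists were also chosen with earlier results of these data known. Their counts are to be read against the shares of all tested genes given above. Those were 11.5% higher and 7.94% lower with the term, and 15.8% and 10.8% with the block. With the term, 32.0% of genes with a mean of at least 100 were called and 8.45% of genes under 100. None of 6 interferon receptor genes passed, among them IFNAR1 (248 to 327 against 292 to 324) and IFNAR2 (9.48 to 36.3 against 18.2 to 40.3). None of 9 tested kinases, STATs and other IRFs passed with the term, and 2 passed under the block, both higher, STAT3 among them. JAK1 stood at 861, 824 and 1347 normalized reads against 788, 856 and 1201 (log2 fold change 0.08 ± 0.10, limma adjusted p = 0.655). With means of 9.42 RPKM with VIM-AS1 and 9.21 in the controls, JAK1 was not scarce here, unlike in the earlier work on LNCaP. TYK2, JAK2 and IRF3 differed by 0.08, 0.25 and 0.04. Of 12 sensing adaptors and kinases, 8 of them with a mean of at least 100, 4 rose and 0 fell (33.3% called): TRAF3 (0.70), STING1, the adaptor of cytosolic DNA sensing (1.29), TRIM25, a ubiquitin ligase that activates RIG-I (0.52), and the kinase IKBKE (0.77).

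Of 9 feedback inhibitors, 6 with a mean of at least 100, 33.3% were called, a share over genes of both levels. Of the 9, 2 rose, the phosphatase PTPN1 (0.71) and NLRX1 (0.45), and PTPN6 fell (-0.50). Under the block 3 were called higher and 2 lower (55.6%, against 26.6% of all genes). In the OAS family of oligoadenylate synthetases, OASL (4.27) and OAS3 (1.39) rose, and OAS1 (0.26) passed under the block only (limma, adjusted p = 0.0152). OASL also passed without the term (limma, adjusted p = 0.00175). Of 17 antigen presentation genes, 13 with a mean of at least 100, 5 rose and 0 fell. That share of 29.4% covers genes of both levels, of which 32.0% and 8.45% were called over all genes. Under the block 8 were called higher and 1 lower (52.9%). Those that rose included the peptide trimmer ERAP1 (1.60), the proteasome subunit PSMB10 (0.83), HLA-B (0.54) and HLA-E (0.45). CCL5, the only chemokine of the list tested, had 19 reads with VIM-AS1 and 0 in the controls, at least 6.72-fold higher against a limit of 3 reads over the group, and its reads were 3, 15 and 1 in VIM-AS1 replicates 1 to 3. Replicate 2 thus carries most of that fold, and without it CCL5 was too low to be tested. CCL5 reached the mean of at least 1 needed for testing only through the VIM-AS1 libraries (6.29 against 0 in the controls). Of 36 further interferon-stimulated genes tested, 26 with a mean of at least 100, 9 rose and 2 fell, a share of 30.6% that also covers both levels. TRIM14 (1.12), WARS1, the tryptophanyl-tRNA synthetase (0.87), ADAR, the RNA adenosine deaminase (0.63), and TRIM26 (0.61) rose. SHFL, which blocks ribosomal frameshifting (-1.03), and the secreted LGALS3BP (-0.94) fell. Of the 21 called genes named in these lists, VIM-AS1 included, 17 lost the call without VIM-AS1 replicate 3 and 11 without control replicate 3. Both of these fits compare the first and second libraries, so they are not separate checks. The fold changes of these genes need not have shrunk: in the first and second libraries TRAF3 stood at 0.67, STING1 at 1.46 and ADAR at 0.61. Of those tested, 2 lost it without each of VIM-AS1 replicates 1 and 2 and control replicate 2, and CCL5 (adjusted p = 0.0788) without control replicate 1.

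Some other measures differed between the groups, and their part in the result was not tested. Mitochondrially encoded genes took 5.57% to 7.06% of reads with VIM-AS1 and 8.73% to 14.3% in the controls. The 6 fibroblast markers with a row summed to 989 to 1440.2 with VIM-AS1 and to 1664 to 1870.4 in the controls, mostly COL1A1 and DCN. THY1 on the same list rose (14.3 to 16.9 against 0.79 to 7.33), COL3A1 overlapped between groups (4.90 to 10.5 against 4.89 to 12.6), and COL1A2 and LUM were at 0 in 5 of 6 libraries each. The 3 endothelial markers summed to 64.5 to 109 against 33.2 to 64.7, with overlap. VWF, which rose (53.2 to 97.0 against 22.1 to 48.9), made up most of that sum, while CDH5 had 37 reads in each group and PECAM1 was at 0 in 5 of 6 libraries. The 5 leukocyte markers summed to 15.7 to 24.6 against 22.9 to 51.3 normalized reads, also with overlap. CD14 made up much of that sum in the controls, CD68 was at 0 in all VIM-AS1 libraries, ITGAM rose (15 against 1 reads), and NKG7 overlapped between groups. ITGAM reached the mean of at least 1 needed for testing only through the VIM-AS1 libraries (5.09 against 0.26 in the controls). In bulk RNA, fewer cells with a transcript and less of it per cell cannot be told apart.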

How the data were processed

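Each group had 3 RNA libraries, and the labels' protocols give an input of 1.3 µg total RNA for each. Reads were processed with fastp, HISAT2 (hg38) and featureCounts, per the submitters' processing notes, with versions and strand setting not given in the sources used here. As deposited, the values are a signal per gene, namely counts divided by a factor per library (0.819 to 1.27, equal to DESeq2's median-of-ratios factors). In every library 100% of values came out as whole reads within 0.01.

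Identifiers were matched to symbols, positions and exons of GENCODE 29. The members and lists were chosen with earlier results of these data known. Genes named are all members and, of the pathway lists, a set kept throughout plus up to 4 per list and direction with the smallest adjusted p; some of these are not reported here. The test was limma 3.58.1 (R 4.3.3) with an intensity trend on log2(value + 1), for 20927 genes with a mean of at least 1, two-sided, with Benjamini-Hochberg adjustment over all of them and a threshold of 0.05. It was run without a library term, with a term for the third libraries, and with the replicate number as a block. Deviations from group means of same-numbered libraries had correlations across 13175 genes of 0.32, 0.72 and 0.84 for replicates 1 to 3. On that ground the numbers were taken to pair the libraries. Deviations from a group mean cancel out within the group, so the deviation shared by the third libraries raises the correlations among replicates 1 and 2. The values for replicates 1 and 2 are therefore not separate evidence of pairing. For replicates 1 and 2 the pairing is uncertain also because VIM-AS1 replicate 1 was closer to control replicate 2 (0.42). VIM-AS1 replicate 2 also correlated with control replicate 1 (0.33). The recovered reads were also tested with edgeR 4.0.16, which called 4 genes without the term and 4199 with it, and with DESeq2 1.42.0. Further alternatives were TMM and library size scaling, other filters and pseudocount, a correction for GC content and length, and each library left out. Counting intervals are exact binomial ones, and counting floors and intervals cover counting error only, because PCR copies were not told apart by molecular identifiers.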

Additional observations from a re-analysis of the deposited data

How the results depend on the processing

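Without the third-library term, 0 members passed under every alternative run except the replicate block, under which 6 were higher and 7 lower. Genes called without the term numbered 5 of all tested, and 353 by DESeq2, 28 with library size scaling, 17 with no filter, 336 from the first and second libraries alone, 5571 with the replicate block and 2 to 41 with a library left out. With the term, leaving out a library gave 0 to 6 members higher, 0 to 6 lower and 288 to 4493 genes in all, while the first and second libraries alone gave 0 higher, 0 lower and 336 genes. edgeR, TMM scaling, no filter and a pseudocount of 0.1 called the same 9 members. Library size scaling lost IFIT2 and IFI27 and added IFITM2, the GC and length correction added BST2, and a filter of 10 reads, which tested 20 members, added IRF1. DESeq2 gave IFI44 no adjusted p and lost none of the other 8. No called member changed sign. Few reads limit the sensors, MX genes, IFI44 and HERC6. The cause of the third-library deviation was not tested.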
